A study of Mus musculus with 6 samples.

Results

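The epidermal growth factor (EGF) receptor family and its ligands were followed through hair follicle bulbs that lacked or kept the receptor Notch1. The members were chosen by gene symbol: the ligand genes Tgfa, Ereg, Areg, Hbegf and Btc and the receptor genes Egfr, Erbb2 and Erbb3. All probe sets annotated with 1 of these 8 symbols alone were taken, which gave 18 of the 45037 non-control probe sets on the array. They covered 7 of the 8 genes, among 18193 genes named on the array. No probe set carried the symbol Areg alone in the annotation used here, and Areg was not analysed here.

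Mouse hair follicles were taken on postnatal day 9, during growth of the first coat, and their total RNA was measured on 6 one-colour oligonucleotide arrays. The emN1 group (2 arrays) came from skin deleted for Notch1 in the embryo, and its bulbs lack functional Notch1. The anN1 group (2 arrays) came from an area deleted in the growth phase, called anagen, and its bulbs still had functional Notch1 according to the labels. The third group (2 arrays) is labelled wild-type, with no deletion named. The design text names both anN1 and wild-type as controls. It also describes 2 array sets, the first with 1 emN1 and 1 anN1 array and the second with the other 4 arrays. The sources used here name neither the strain, nor the agent that deleted the gene, nor the part of the gene removed. Replicates are labelled biological, but separate animals are not mentioned, and p-values therefore measure only the spread between these samples.

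Ligands of this family are made as membrane-anchored precursors and are released by surface proteases, after which they bind receptor tyrosine kinases that pair and activate the RAS-MAPK and PI3K pathways. Tgfa, Ereg, Areg, Hbegf and Btc all encode ligands of the EGF receptor Egfr. Erbb2 has no known ligand and serves as a partner, and Erbb3, whose own kinase is weak, binds neuregulins. In mouse skin the pathway is known for its part in hair shape, since mutants of Tgfa and of Egfr have waved coats, and for keeping keratinocytes of the basal layer and outer root sheath growing.

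The signal of Notch1, the deleted gene, was 6498 and 6292 units in emN1, 15077 and 12527 in anN1, and 23750 and 34070 in wild-type for its brighter probe set. It was lowest in both emN1 arrays and fell by 1.55 on the log2 scale (SE 0.35; limma, Benjamini-Hochberg adjusted p = 0.0491), a call lost under 8 of the alternatives listed in the closing section. The dimmer probe set gave 821 and 1561 in emN1, 1581 and 2789 in anN1, and 2833 and 3720 in wild-type. Its log2 difference was -0.96 (SE 0.17; limma adjusted p = 0.0211). On both probe sets the anN1 signals were all below the wild-type signals, although both groups are pooled as controls. Every deposited array had a trimmed mean signal of 1500. Signals of 20 undetected bacterial control probe sets had a 95th percentile of 112, taken here as the background limit, and 64.6% to 68.1% of probe sets lay above it on each array. The ratio of 3′ to 5′ signal of beta-actin, a sign of RNA quality, reached 4.59 (emN1) and 5.64 (anN1) among first-set arrays and lay between 2.39 and 2.71 among second-set arrays. It was thus higher in the first array set. The same ratio for Gapdh did not separate the sets, at 4.79 (emN1) and 6.96 (anN1) in the first set and 4.64 to 5.45 in the second. The part of RNA quality in the results was not tested. The array set was a term of the fits reported here, and the closing section gives those without it. Of 12 genes listed for hair matrix and shaft, 11 were measured, and their summed signal was 246616 and 258736 in emN1 against 261244 to 277125 in the controls.

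Ereg and, on 1 of its 2 tested probe sets, Tgfa were higher in emN1 bulbs than in both kinds of control. Against the pooled controls Hbegf was 1.78-fold and 1.39-fold higher on its 2 probe sets, and Egfr 1.16-fold to 1.37-fold higher. Neither gene passed the test. Btc, Erbb2 and Erbb3 did not differ beyond their spread. Of the 18 probe sets, 13 were bright enough on average to be tested, and 5 dim ones were left out. Between emN1 and the 4 control arrays, 2 of the 13 tested member probe sets rose, 0 fell and 11 did not pass limma at a Benjamini-Hochberg adjusted p of 0.05. Across the whole array 3.77% of 27022 probe sets passed, 2.41% higher and 1.37% lower. At an unadjusted p under 0.05 there were 4 of 13 member probe sets, against 16.6% of all tested. The median log2 difference was 0.34 over the 13 member probe sets and -0.01 over all probe sets tested. Both emN1 signals lay above all 4 control signals for 6 of the 13 member probe sets, against 9.99% of all tested, and below them for 1, against 9.33%, so that the groups did not overlap for 7 of 13, against 19.3% of all tested. The members were chosen with earlier results of these data known, so the member shares given here and below are not a test of the family. Several probe sets read the same gene on the same arrays, and they are not independent units.

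Tgfa encodes transforming growth factor alpha, a ligand of Egfr made by keratinocytes. The brightest of its 3 probe sets (1421943_at) gave 2497 and 3511 units in emN1, against 1037 and 738 in anN1 and 931 and 886 in wild-type. Both emN1 signals stood far above every control signal, and the 4 controls lay close together. The log2 difference from the controls was 1.72 (SE 0.22; 95% interval 1.22 to 2.22; n = 2 and 4), or 3.29-fold on the log2(signal + 17.8) scale, with a limma adjusted p of 0.00573. Against anN1 alone it was 1.74 (SE 0.26; limma adjusted p = 0.0240) and against wild-type alone 1.69 (SE 0.29; limma adjusted p = 0.0367). These 3 comparisons share the emN1 arrays. Within the first array set the emN1 signal was 2.41 times the anN1 signal and within the second 4.76 times.

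The other 2 Tgfa probe sets, which were designed on the same target accession, did not show this rise. The second (1450421_at) gave 284 and 360 units in emN1, against 444 and 365 in anN1 and 403 and 424 in wild-type. Both emN1 signals were below every control signal, though by little, and the log2 difference of -0.33 (SE 0.28; 95% interval -0.96 to 0.31) did not pass limma (adjusted p = 0.637). The third (1421942_s_at) stayed between 40.6 and 77.4 on all 6 arrays, under the background limit, and was not tested. The rise of Tgfa therefore rests on 1 probe set of 3. The position of each set of probes in the transcript was not used here.

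The RefSeq promoter table (GRCm38.p6, 250 bases before to 50 after a gene's start) held windows for 4 of the 7 measured members, Tgfa, Btc, Egfr and Erbb2. Both strands were searched for TGGGAA, the core motif of RBPJ, the DNA-binding partner of cleaved Notch1, for TGANTCA, the motif of AP-1 factors downstream of growth factor signalling, and for GGGCGG, the GC box of Sp1-like factors. TGGGAA was found in 0 of the 4 windows and in 25.6% of all 32851 windows, and TGANTCA in 0 of 4 and in 7.81%. GGGCGG was found in 2 of 4, those of Tgfa and Egfr, and in 35.7% of all windows. A match is only a match of letters, and its absence concerns these windows alone. The stretches around the GC boxes are shown because 1 probe set of the ligand Tgfa rose and Egfr is its receptor. Capitals mark GGGCGG, read on the opposite strand as CCGCCC.
Tgfa, chr6:86195084-86195113, plus strand: cgcaggggactcGGGCGGcgaccctgggcg
Tgfa, chr6:86195195-86195224, plus strand: gggcgcaggtccCCGCCCccggcttccagt
Egfr, chr11:16752182-16752211, plus strand: tccctcctcctcCCGCCCagcctcccccag

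Ereg encodes epiregulin, a ligand that activates Egfr and Erbb4. Its single probe set gave 4314 and 5493 units in emN1, 1803 and 2005 in anN1, and 1428 and 1503 in wild-type. No overlap occurred between the groups, and their order was emN1, anN1, wild-type. Ereg differed from the controls by 1.55 log2 units (SE 0.19; 95% interval 1.11 to 1.99), which is 2.92-fold, with a limma adjusted p of 0.00537. The difference was 1.35 (SE 0.16; limma adjusted p = 0.0125) from anN1 and 1.84 (SE 0.18; limma adjusted p = 0.00484) from wild-type. Its size was similar in the array sets, with emN1 at 2.39 times anN1 in the first and 2.74 times in the second. Between the controls, anN1 was above wild-type by 0.50 (SE 0.18; n = 2 each), which did not pass limma after adjustment over all probe sets (adjusted p = 0.999).

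The calls on Tgfa and Ereg rested on few arrays. Without emN1 replicate 2, neither passed (log2 1.25 and 1.25; limma adjusted p = 0.152 for both). With the array set as a term, that estimate compares only the emN1 and anN1 arrays of the first set. Leaving out either first-set array likewise leaves a comparison within the second set alone, with the same estimates in both cases (2.03 for Tgfa and 1.74 for Ereg). Neither passed in limma without the intensity trend (adjusted p = 0.0638 for Tgfa and 0.0672 for Ereg), a setting in which 0 of 27022 probe sets passed. Both passed under the other 11 alternatives, with log2 differences from 1.64 to 2.03 for Tgfa and from 1.48 to 1.74 for Ereg. Against anN1 alone each passed under 8 of 14 alternatives, and against wild-type alone Tgfa passed under 7 and Ereg under 8 of 13.

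**Figure D1:**
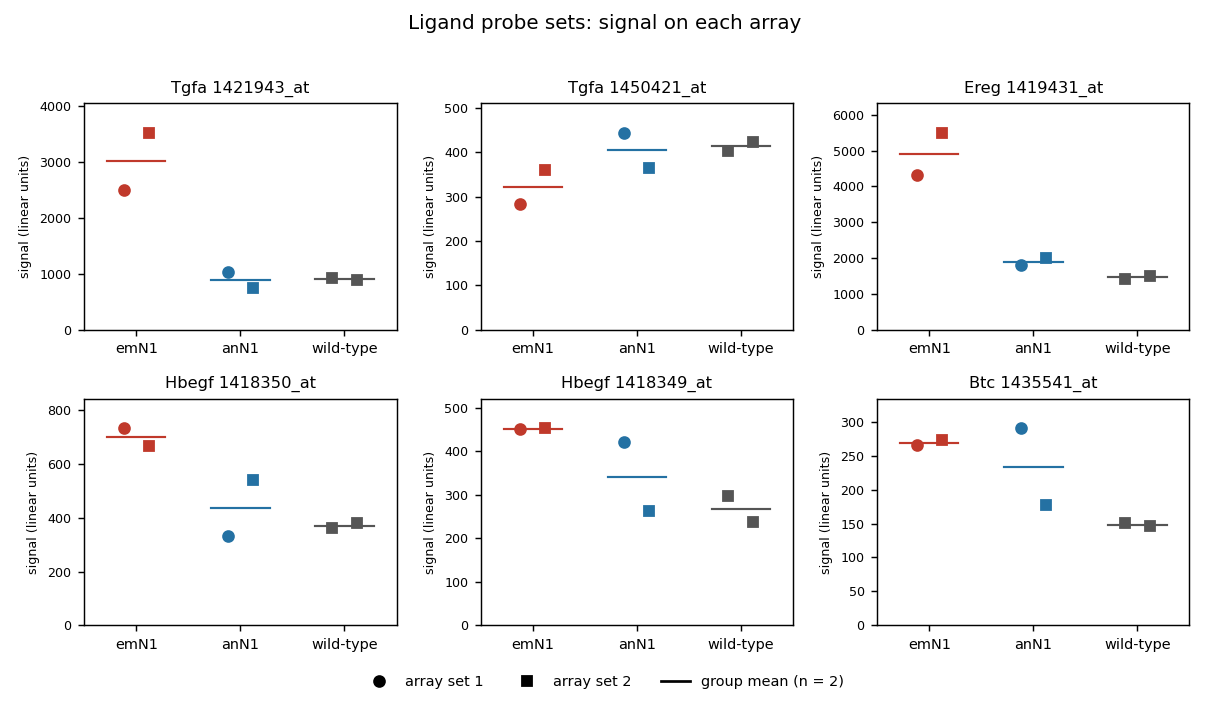
Signal (vertical axis, linear units) of the 6 tested ligand probe sets in emN1, anN1 and wild-type bulbs; circles are arrays of the first set, squares of the second, and lines are group means (n = 2). The emN1 points of Tgfa 1421943_at (2497 and 3511) and of Ereg (4314 and 5493) stand above all 4 control points, and those of Tgfa 1450421_at lie below them.

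Hbegf encodes heparin-binding EGF-like growth factor, a ligand of Egfr induced in wounded epidermis. Its brighter probe set (1418350_at) gave 733 and 668 units in emN1, 331 and 540 in anN1, and 364 and 379 in wild-type. Both emN1 signals were above every control, but the 2 anN1 arrays differed widely. The log2 difference of 0.83 (SE 0.28; 95% interval 0.19 to 1.47) did not pass limma after adjustment (adjusted p = 0.177). The other probe set (1418349_at) gave 451 and 453 units in emN1, 422 and 262 in anN1, and 298 and 238 in wild-type. It was again highest in emN1, with a log2 difference of 0.48 (SE 0.30; 95% interval -0.21 to 1.16; limma adjusted p = 0.496). In the first array set the brighter probe set was 2.22 times higher in emN1 than in anN1 and the other 1.07 times, while in the second set these ratios were 1.24 and 1.73.

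Btc encodes betacellulin, a ligand of Egfr and Erbb4. Its brighter probe set gave 266 and 273 units in emN1, 290 and 177 in anN1, and 150 and 147 in wild-type. Both emN1 arrays and the first anN1 array were alike, the groups overlapped, and the log2 difference from the controls was 0.39 (SE 0.37; 95% interval -0.45 to 1.23; limma adjusted p = 0.680). Against anN1 its log2 difference was -0.12 within the first array set but 0.57 within the second. The dimmer Btc probe set, at 30.8 to 112 units, was above background on 1 array of 6 and was not tested.

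In the mouse annotation (GRCm38.p6, used for gene order alone) Epgn, Ereg, Areg and Btc are consecutive protein-coding genes on 1 chromosome. Epgn, which encodes epigen, another ligand of Egfr, is not a member but neighbours Ereg. Its signals were 4950 and 4460 in emN1, 2416 and 2288 in anN1, and 980 and 1267 in wild-type. Again no groups overlapped, in the same order as for Ereg. Epgn differed by 1.40 log2 units from the pooled controls (SE 0.32), just short of the threshold (limma adjusted p = 0.0538). It passed against anN1 alone (log2 0.99; limma adjusted p = 0.0471) and against wild-type alone (log2 2.00; limma adjusted p = 0.00603). The call against anN1 was lost under 10 of 14 alternatives and that against wild-type under 5 of 13, while the pooled comparison passed under 4 of 13. Btc, at the other end of the run, had group means in the same order (270 in emN1, 234 in anN1 and 149 in wild-type). Its emN1 and anN1 signals overlapped, however, and it did not pass limma.

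Egfr, the receptor that all these ligands bind, had 7 probe sets, of which 5 were tested. The brightest (1435888_at) gave 13434 and 10845 units in emN1, 10586 and 9345 in anN1, and 10652 and 9800 in wild-type. Another (1424932_at), next in brightness, gave 9168 and 8482 in emN1, 6932 and 6584 in anN1, and 5802 and 5862 in wild-type. For both, each emN1 signal was above every control signal, although the margin for the brightest was small. The log2 differences were 0.21 (SE 0.11; 95% interval -0.03 to 0.46; limma adjusted p = 0.367) and 0.45 (SE 0.11; 95% interval 0.20 to 0.70; limma adjusted p = 0.0663). The 3 other tested Egfr probe sets overlapped between groups and differed by 0.26 to 0.34, with limma adjusted p from 0.510 to 0.712. All 5 estimates were thus positive, from 1.16-fold to 1.37-fold, and 0 passed. These 5 are readings of 1 gene on the same arrays and are not independent replicates. The remaining 2 were dim. One of them (1454313_at) ran from 11.5 to 295 units, with 295 and 137 in emN1 and 11.5 and 240 in anN1, and the other stayed at or under 104.

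Erbb2, the partner receptor, gave 1536 and 2524 units in emN1, 1724 and 2026 in anN1, and 2674 and 2042 in wild-type. Erbb3, the neuregulin receptor, gave 9968 and 16953 in emN1, 11091 and 12448 in anN1, and 16872 and 13634 in wild-type. For both genes the 2 emN1 arrays lay at or near opposite ends of the range, so that the groups overlapped fully. The log2 difference was 0.04 for Erbb2 (SE 0.18; 95% interval -0.37 to 0.45; limma adjusted p = 0.948). It was 0.09 for Erbb3 (SE 0.15; 95% interval -0.25 to 0.43; limma adjusted p = 0.832). These intervals leave room for changes of 0.775-fold to 1.37-fold and 0.841-fold to 1.35-fold. The other Erbb3 probe set stayed at or under 111 units, under the background limit, on every array.

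**Figure D2:**
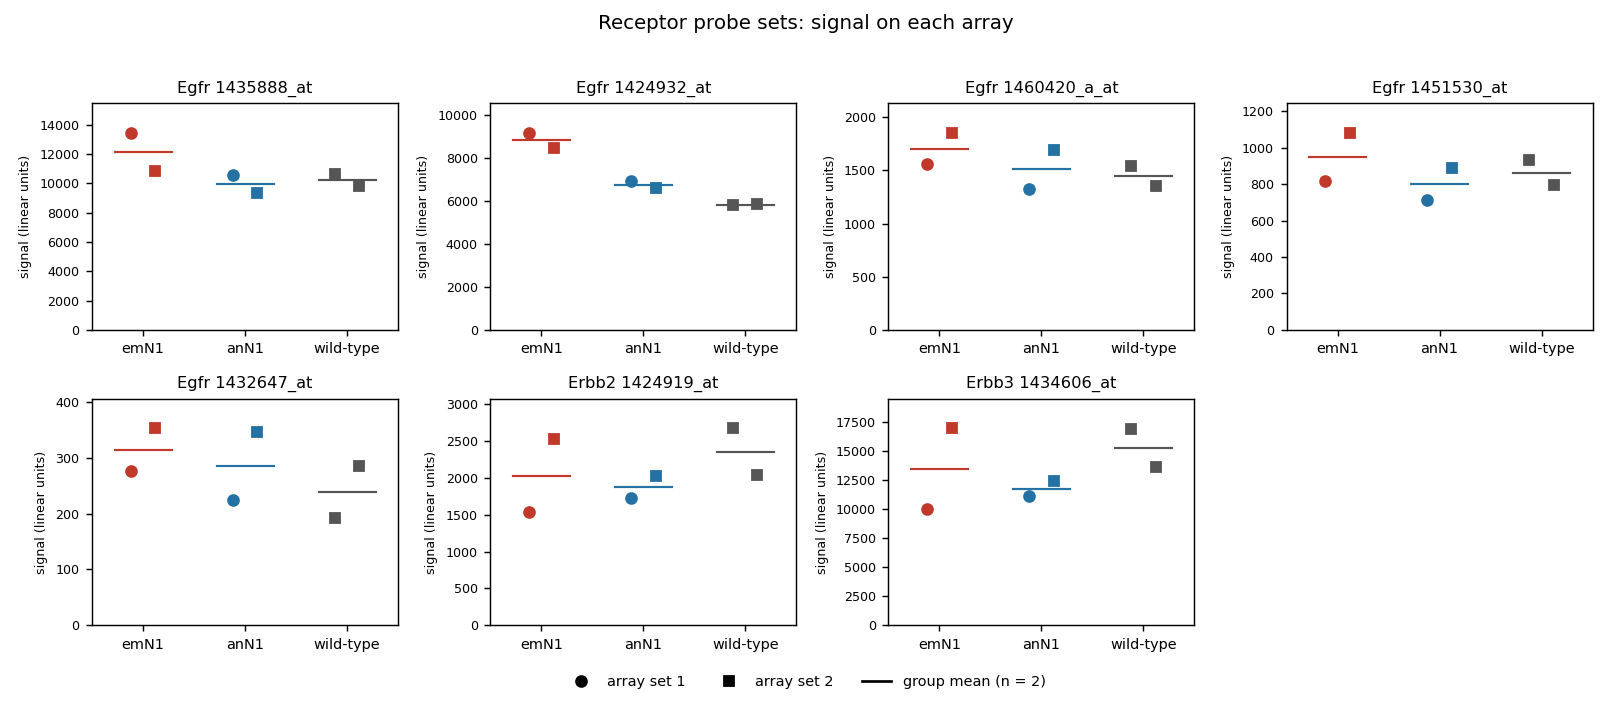
Signal (vertical axis, linear units) of the 7 tested receptor probe sets in emN1, anN1 and wild-type bulbs, with circles for the first array set, squares for the second and lines for group means (n = 2). Egfr 1424932_at is the receptor probe set with the widest gap between emN1 (9168 and 8482) and the controls (5802 to 6932), while Erbb2 and Erbb3 overlap.

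Across the 6 arrays the members fell into patterns that can be described without a test. The brightest probe sets of Tgfa and Ereg correlated with Pearson r = 0.946, Ereg and Hbegf with 0.892, and Tgfa and Hbegf with 0.747. Erbb2 and Erbb3 correlated with r = 0.988 with each other and with r between -0.464 and 0.063 with the ligands and Egfr. The points are 6 arrays that share group, array set and scaling. Both receptors were low on the first emN1 array and high on the second emN1 array and the first wild-type array.

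The genes whose pattern was most like each member over the 6 arrays were taken by Pearson r on the log2 scale. For Tgfa they were Ecel1 (r = 0.997), which encodes a protease of nervous tissue, and Cd68 (r = 0.995), a marker of macrophages that is also in the immune cell list. For Ereg they were Irak3 (r = 0.998), a regulator of innate immune signalling, and the epithelial keratin Krt80 (r = 0.997). For Hbegf they were Serhl (r = 0.994) and Asb13 (r = 0.991), for Btc Gm32219 (r = 0.997) and Akt2 (r = 0.991), and for Egfr Cpq and Vav1 (r = 0.992 for both). For Erbb2 they were Foxn2 (r = 0.993) and Rnf6 (r = 0.992), and for Erbb3 Mynn (r = 0.998) and Zfp664 (r = 0.995). Of 12610 genes, 111 exceeded r = 0.95 with Tgfa and 207 with Ereg, so the named genes are the top of longer lists. Each r rests on 6 arrays that share group, array set and scaling, and shared regulation was not tested.

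Markers of several cell types also differed between emN1 and the controls, in both directions. Among all tested probe sets 2.41% rose and 1.37% fell in this comparison, and a share over genes was not counted. In a list of 9 genes of basal and outer root sheath keratinocytes, cells that make EGF receptor ligands, 8 were measured, of which 5 rose and 0 fell. Their summed signal was 137050 and 155259 in emN1, against 77142 to 95780 in the controls. Of 8 measured fibroblast genes 5 rose (summed signal 107825 to 130398 in emN1 and 65893 to 85458 in the controls). Of 7 measured immune cell genes 3 rose (5396 to 5543 in emN1 and 1198 to 1480 in the controls). Of 8 measured melanocyte genes 6 fell (96096 to 114521 in emN1 and 210730 to 304103 in the controls). Of 4 measured endothelial and contractile cell genes 3 rose (39903 to 40350 in emN1 and 15333 to 22603 in the controls). These 3 were Tagln, Acta2 and Cspg4, and the endothelial gene Kdr did not pass (log2 0.43, SE 0.92; limma adjusted p = 0.882). Of 4 measured sebaceous gland genes 2 rose, of 3 measured keratins of stressed epidermis 2 rose and 1 fell, and of 7 measured dermal papilla genes 1 rose and 2 fell. Of the hair matrix genes 1 rose and 1 fell. Of 4 measured suprabasal epidermis genes 0 passed in either direction against the pooled controls (41647 to 48604 in emN1 and 42574 to 48697 in the controls). Most of these sums came from Dsc1 (30815 and 37811 in emN1). Lor fell just short (log2 -1.15; limma adjusted p = 0.0501). Against wild-type alone Ivl rose (log2 2.00; limma adjusted p = 0.00515) and Lor fell (log2 -1.54; limma adjusted p = 0.0289), while against anN1 alone 0 passed. No measured marker of these lists was under background on all arrays. In these bulk samples more cells of a type and more RNA per cell cannot be told apart, and the part of these cell types in the ligand values was not tested.

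**Figure D3:**
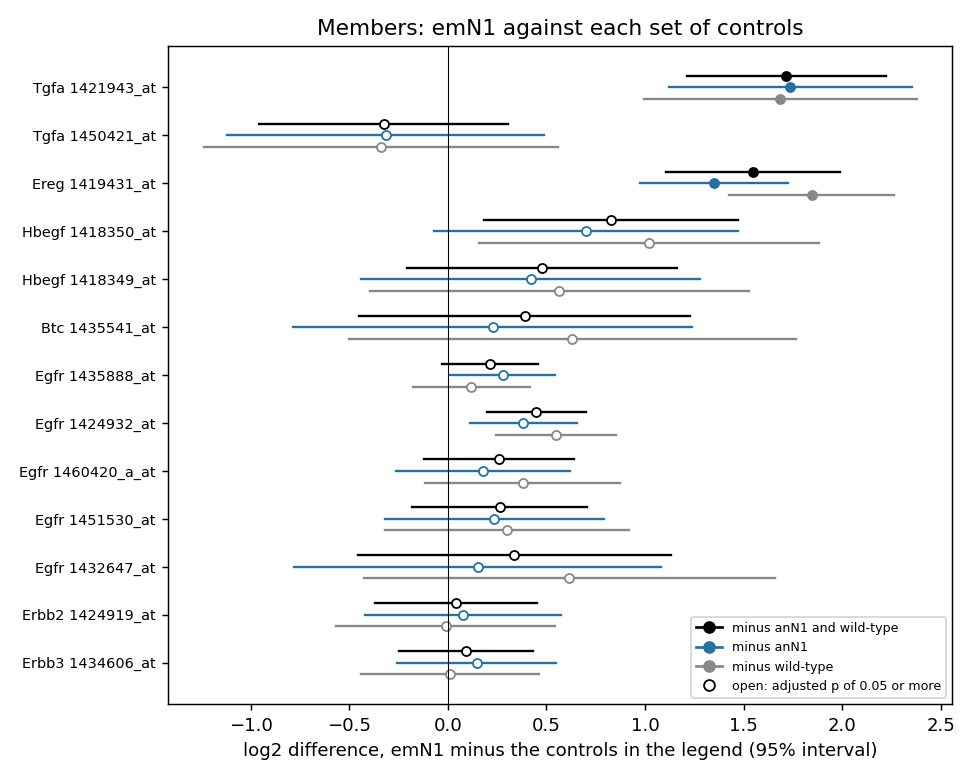
Log2 difference (horizontal axis) of each tested member probe set between emN1 and the pooled controls (black), anN1 (blue) or wild-type (grey), with 95% intervals; filled points passed limma at an adjusted p of 0.05. Only Tgfa 1421943_at and Ereg are filled, in all 3 comparisons, and Erbb2 and Erbb3 sit near 0.

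Against each kind of control alone, the same 2 member probe sets passed, both higher in emN1. That is 2 of 13 against anN1, where 2.02% of all tested probe sets passed (1.35% higher and 0.662% lower), and 2 of 13 against wild-type, where 2.16% passed (1.53% higher and 0.629% lower). Between the 2 kinds of control, anN1 and wild-type, 0 of 13 passed limma, against 0.0740% of all tested (0.0518% higher and 0.0222% lower in anN1). At an unadjusted p under 0.05 there was 1 of 13, Ereg, against 3.64% of all tested. Egfr 1424932_at differed by 0.38 (SE 0.12; limma adjusted p = 0.197) from anN1 and by 0.55 (SE 0.13; limma adjusted p = 0.0988) from wild-type. For the brightest Egfr probe set these values were 0.28 (SE 0.11) and 0.12 (SE 0.13).

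Within the array sets, where 1 emN1 array stood against 1 anN1 array, 9 of the 13 member probe sets were higher in emN1 in both sets. They were Tgfa 1421943_at, Ereg, both of Hbegf and all 5 of Egfr. Tgfa 1450421_at was lower in both, and Btc, Erbb2 and Erbb3 were lower in the first set and higher in the second. Among all 27022 probe sets the directions were higher in both sets for 27.5%, lower in both for 31.1% and opposite for 41.4%. The 13 include several probe sets of the same gene, which are not independent, and the members were chosen with earlier results known.

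**Figure D4:**
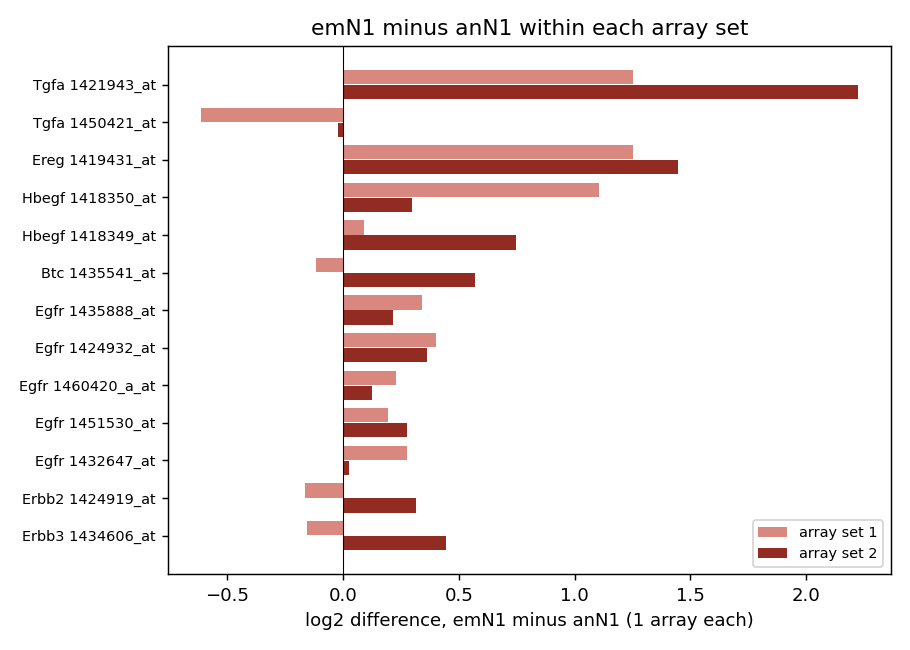
Log2 difference between emN1 and anN1 (horizontal axis) for each tested member probe set in the first (light) and the second (dark) array set, 1 array a side. Tgfa 1421943_at reaches 1.25 and 2.22 and Ereg 1.25 and 1.45, while Btc, Erbb2 and Erbb3 change direction between the sets.

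Genes around the receptor were read from 5 lists, the members left out. Among all tested probe sets 2.41% rose and 1.37% fell against the pooled controls. A share over genes was not counted, and the list counts are not a test of the lists. Of 12 genes for shedding and trafficking of ligands, 2 rose, 0 fell and 10 did not pass, with a median log2 difference of 0.17 against -0.02 over all 12611 genes. Timp3, an inhibitor of ligand-shedding proteases, had signals of 8378 and 9733 in emN1, 3792 and 6919 in anN1, and 6028 and 6073 in wild-type. It rose by 0.83 log2 units (SE 0.14; limma adjusted p = 0.0178), and 3 of its 4 probe sets passed. Adam9, a membrane metalloprotease, had signals of 9866 and 9482 in emN1, 6039 and 5860 in anN1, and 5159 and 5215 in wild-type. It rose by 0.77 (SE 0.11; limma adjusted p = 0.00930). Adam17, the main sheddase of these ligands, was among the 10 that did not pass (log2 -0.13, SE 0.16; limma adjusted p = 0.765).

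Of 21 measured inhibitors and feedback regulators, 5 rose, 1 fell and 15 did not pass (median 0.08). Socs3, a feedback inhibitor of cytokine signalling, had signals of 2079 and 3737 in emN1, 659 and 1384 in anN1, and 1354 and 1128 in wild-type. It rose by 1.57 log2 units (SE 0.17; limma adjusted p = 0.00333), and 2 of its 3 probe sets passed. Dusp4, a phosphatase of MAP kinases, had signals of 360 and 735 in emN1, 1602 and 1949 in anN1, and 1497 and 1639 in wild-type. Dusp4 fell by 1.55 log2 units (SE 0.24; limma adjusted p = 0.0127). Dusp6, another MAP kinase phosphatase, moved the opposite way, up by 0.74 (SE 0.14; limma adjusted p = 0.0271). Lrig3 rose by 0.76 (SE 0.13; limma adjusted p = 0.0178), although 2 of its 3 probe sets did not pass. The other 2 that rose, named after their values were seen, were Lrig1, which promotes degradation of EGF receptors (log2 0.65, SE 0.14; limma adjusted p = 0.0466), and Errfi1, a direct inhibitor of the Egfr kinase (log2 0.64, SE 0.11; limma adjusted p = 0.0177). The dimmer Errfi1 probe set, at 0.19, did not pass.

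Of 12 measured response genes, 1 rose, 2 fell and 9 did not pass (median 0.17). Ier3, an early response gene, had signals of 8737 and 9204 in emN1, 5053 and 3742 in anN1, and 4156 and 4379 in wild-type. It rose by 1.02 log2 units (SE 0.13; limma adjusted p = 0.00637). Ccnd1, the cyclin of the G1 phase, had signals of 5848 and 4287 in emN1, 10218 and 9838 in anN1, and 8269 and 9787 in wild-type. Ccnd1 fell by 0.99 log2 units (SE 0.13; limma adjusted p = 0.00579), and all 3 of its probe sets passed. Phlda1 fell by 0.63 (SE 0.12; limma adjusted p = 0.0300). Both directions thus occurred among genes that growth factors are known to induce.

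Of 20 measured adaptors and transducers of the RAS-MAPK, PI3K and STAT pathways, 0 passed limma in either direction (median 0.02). The smallest unadjusted p-values were those of Stat3, at 0.63 log2 units (SE 0.16; limma adjusted p = 0.0768), and Pik3r1, at -0.57 (SE 0.18; limma adjusted p = 0.153). Of the other EGF family genes, 3 of 7 were measured, namely Epgn, Egf and Nrg2, and 0 passed against the pooled controls. Egf gave 270 and 299 units in emN1, 287 and 155 in anN1, and 416 and 241 in wild-type, and differed by 0.11 (SE 0.42; limma adjusted p = 0.941). Erbb4, the remaining receptor of the family, stayed under the background limit on all 6 arrays, with a highest signal of 68.3.

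These 11 calls were made against the pooled controls. Against anN1 and wild-type each taken alone, 4 of them passed both tests (Adam9, Socs3, Ier3 and Ccnd1). Dusp4 passed against anN1 and not wild-type, Lrig3 and Dusp6 passed against wild-type and not anN1, and the other 4 (Timp3, Phlda1, Lrig1 and Errfi1) passed against neither. Between anN1 and wild-type themselves, 0 genes of the 5 lists passed limma, so that no gene was shown to differ more from one control than from the other. Of the 11 genes, 0 still passed once emN1 replicate 2 was left out. With emN1 replicate 1 left out only Ier3 and Ccnd1 passed, without anN1 replicate 1 only Socs3, Ier3 and Ccnd1, and without either anN1 replicate 2 or wild-type replicate 1 all but Dusp6, Phlda1 and Lrig1. Lrig1 alone was also lost without wild-type replicate 2. With the array set term left out only Dusp4 and Ier3 passed, without the intensity trend 0 passed, and with arrays scaled to the same median 6 passed. The direction of each of the 11 was the same in all 13 alternatives run.

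**Figure D5:**
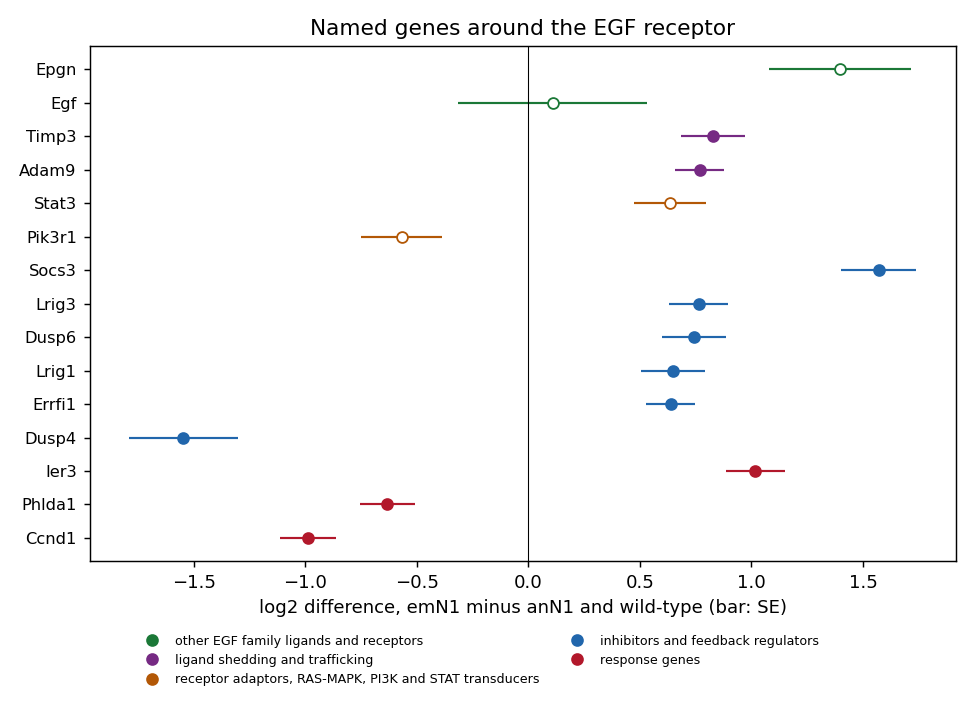
Log2 difference between emN1 and the pooled controls (horizontal axis, bars are SE, n = 2 and 4) for the named genes of the 5 lists around the EGF receptor, coloured by list; open points did not pass limma. Socs3 (1.57) and Epgn (1.40) lie farthest to the right and Dusp4 (-1.55) farthest to the left.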

How the data were processed

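The deposited values are MAS5 signals, intensity on a linear scale with 1 value per probe set and array, summarised by the authors per the submitters' processing notes; the version is not given in the sources used here. Scaling makes levels relative within an array, and the number of arrays limits the precision. Gene names came from the array annotation, in which 34958 probe sets had 1 symbol, 932 several and 9211 none. Of these symbols 34754 matched GRCm38.p6, and 0 changed. Control probe sets (64 of 45101) were left out. Signals were taken as log2(signal + 17.8), where 17.8 is the 10th percentile over the whole table. The upper 60% by mean log2 signal were kept.

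Differences were tested two-sided with limma 3.58.1 in R 4.3.3 (linear model, empirical Bayes with intensity trend), with the array set as a term, Benjamini-Hochberg adjustment over all 27022 kept probe sets and a threshold of 0.05. Residual degrees of freedom were 3 for emN1 against the pooled controls and 2 for the 3-group fit. The set pairs emN1 and anN1 replicates according to the design text; deviations of same-set arrays correlated with r = 0.381 (emN1 and anN1), -0.188 (emN1 and wild-type) and -0.0222 (anN1 and wild-type). The fit was tested on simulated data.

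The members and lists were chosen with earlier results of these data known. A gene other than a member is represented by its kept probe set of highest mean signal. The exception is the search for genes most like a member, which took each gene's best-correlating kept probe set. Named were every member, Notch1, up to 4 genes past the threshold per pathway list by size of change, or with none the 2 of smallest unadjusted p, and the 2 genes most like each member. Alternatives varied the addend, filter, trend, set term, scaling, background floor and each array in turn. Those for the pathway genes, Epgn and Notch1 were chosen after seeing the data.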

Additional observations from a re-analysis of the deposited data

How the results depend on the processing

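Of 755 alternative values for single genes, 616 kept their direction and side of the threshold, 112 lost a call, 4 gained one and 23 changed sign, with the cause not tested. With the array set as the pairing term left out (no replicate block), all-probe-set calls numbered 286 for emN1 against the controls, 42 against anN1 and 215 against wild-type, and member calls 0 against anN1 and 1 against wild-type. The paired fit with the replicate block on the emN1 and anN1 arrays alone called 1261. Without the intensity trend 0 passed limma in every comparison, for all probe sets and for members. In that setting 4044 probe sets were at an unadjusted p under 0.05 for emN1 against the controls, 3109 against anN1, 3003 against wild-type and 1118 for anN1 against wild-type. Scaling arrays to the same median gave 46 for anN1 against wild-type. Leaving out 1 array at a time gave 1 to 1092 calls against the controls, 0 to 1269 against anN1, 0 to 1375 against wild-type and 0 to 173 between the controls, and 0 to 2 member calls in each emN1 comparison. A lone array left in a group was assumed to vary like the others. Sign changes, none past the threshold, were Erbb2 -0.085 and Erbb3 -0.038 against the controls and Erbb3 -0.22 against wild-type without the block, and Erbb3 -0.076 against wild-type with median scaling. Leaving out 1 array gave, against the controls, Btc -0.12 to 0.73, Erbb2 -0.16 to 0.18, Erbb3 -0.15 to 0.26 and Egf -0.086 to 0.30. Against anN1 it gave Btc -0.12 to 0.57, Erbb2 -0.16 to 0.31 and Erbb3 -0.15 to 0.45, and against wild-type Erbb2 -0.37 to 0.18 and Erbb3 -0.44 to 0.16. Signals near the background limit of 112 carry no order.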
